A study of Gallus gallus with 18 samples.

Results

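The comparison described here sets the uterus of low strength hens, those laying weak-shell eggs, at the termination of eggshell calcification against the uterus of the same strength group at its initiation. It rests on 6 of the 18 RNA-seq libraries of the series, 3 from each period (libraries LST-1 to LST-3 and LSI-1 to LSI-3), chosen by what the labels give as shell strength and period. All birds were Hy-Line Brown, a commercial brown-egg layer, at 42 weeks of age, and none of the groups used here carried a treatment or allele named in the labels. Low strength growth libraries and the high strength termination and initiation libraries, from hens laying hard-shell eggs, are set beside these where a level or a difference is given, and all 18 libraries, high strength growth included, enter the filter on low counts and the spread shared by the tests. Replicate numbers run from 1 to 3 and nothing ties a library to its own hen, so p-values reflect only how these samples vary, part of which may be technical.

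The uterus, or shell gland, is the last secretory segment of the hen's oviduct before the egg is laid. Its epithelium draws calcium from the blood and makes bicarbonate, from which calcite forms on the shell membranes, and it secretes the proteins of the shell's organic matrix. Mineral first nucleates on the membranes, then grows as columns for most of the night, and stops before laying, when the cuticle is laid over the finished shell. In a bulk sample such as these, fewer cells of a type and less RNA per cell cannot be told apart.

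The deposited table gives 20866 loci, 17108 with Ensembl identifiers and 3758 that the authors numbered outside that annotation, and does not pair identifiers with gene names. The RefSeq table used here held 0 Ensembl identifiers, so loci are called by identifier, no role is given to them, and the markers of uterine epithelium or of other cell types were not examined. Levels are in CPM, counts scaled to a common library size with the trimmed mean method (TMM) of edgeR, and the totals of the 6 libraries lay between 14059536 and 14883853 counts. Loci above 1 CPM in at least 3 of the 18 libraries were tested, 16110 in all.

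At termination 1547 loci were higher and 1839 lower than at initiation in the low strength hens (edgeR quasi-likelihood test with a mean for each of 6 groups, Benjamini-Hochberg adjustment over all loci, threshold 0.05). These 3386 loci are 21.0% of those tested, with 9.6% higher and 11.4% lower. The changes were often large. Of the loci that rose, 1124 were estimated at more than 2-fold, 481 at more than 4-fold, 93 at more than 16-fold and 19 at more than 64-fold. Of those that fell, 1272, 555, 142 and 53 passed the same sizes. These sizes are fitted. For loci with 0 or very few counts in one period the size is not measured, and how many of the counts are such loci was not determined. The median log2 change was 1.48 among loci that rose, −1.39 among loci that fell and −0.03 over all loci tested, and the median standard error of a locus was 0.35. In 3254 of the 3386 called loci the 3 termination libraries all lay on one side of the 3 initiation libraries. Such a separation was seen upward in 19.8% and downward in 22.1% of all loci tested.

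**Figure D1:**
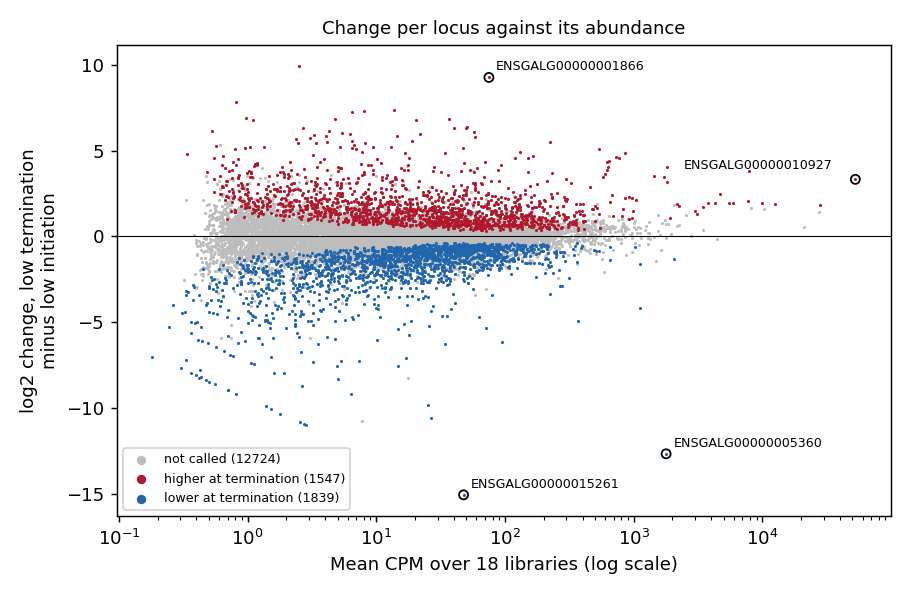
Each point is 1 of 16110 loci, placed by its mean CPM over 18 libraries (log axis) and its log2 change, low termination minus low initiation. The 1547 loci called higher are red, the 1839 called lower are blue and the rest are grey. The circled loci are the 4 described in detail, and 2 called loci lie above a fitted log2 change of 8 and 22 below −8.

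Among called Ensembl loci of at least 10 CPM whose libraries did not overlap, the largest fold rise was in ENSGALG00000001866. It stood at 256, 318 and 267 CPM in low termination libraries 1, 2 and 3, against 0.222, 0.477 and 0.666 CPM in low initiation libraries 1, 2 and 3. Every termination library was far above every initiation library, and the termination libraries lay close together. The means were 280 ± 33.1 CPM at termination and 0.455 ± 0.223 CPM at initiation (SD, n = 3 each), a log2 change of 9.27 (SE 0.82; edgeR adjusted p = 3.18e-06). Its level in low growth, 19.5 ± 11.2 CPM, lay between these. In high strength hens the locus was also higher at termination, at 134 ± 71.9 CPM against 0.633 ± 0.248 CPM at initiation, and a test of whether this change differed by strength did not pass (log2 difference 1.55 with SE 1.02; edgeR adjusted p = 0.276).

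The largest rise in CPM was in ENSGALG00000010927, the most abundant locus of all 3 low termination libraries. This locus was also the most abundant in every library of low growth, high growth and high termination. It stood at 96064, 140947 and 124224 CPM in low termination libraries 1, 2 and 3, against 4385, 8983 and 22592 CPM in low initiation libraries 1, 2 and 3. The groups did not overlap, and initiation library 3 was the nearest to termination. The log2 change was 3.33 (SE 0.58; edgeR adjusted p = 8.96e-04). In low growth the locus averaged 56219 ± 15494 CPM (SD, n = 3). In high strength hens it averaged 53204 ± 17770 CPM at termination and 26359 ± 3636 CPM at initiation, and the change in low minus that in high strength hens was 2.32 on the log2 scale (SE 0.76), just short of the threshold (edgeR adjusted p = 0.0512).

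ENSGALG00000015261 had the most negative fitted change, which is no measured rank since termination was at 0. It had 0 counts in each of the 3 low termination libraries and 314, 275 and 267 CPM in low initiation libraries 1, 2 and 3. Taking 3 counts per library as the floor, which covers counting error only, it averaged at least 1081-fold lower at termination (edgeR adjusted p = 1.41e-04). It also had 0 counts in the low growth libraries. High strength hens had 17 counts of it in initiation library 1 and none in the other initiation libraries or at termination. Only the low initiation libraries and high initiation library 1 had more than 1 CPM of it, so it passed the filter on low counts through these.

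The largest fall in CPM was in ENSGALG00000005360, at 2.11, 0.599 and 2.14 CPM in low termination libraries 1, 2 and 3, against 12547, 10796 and 8763 CPM in low initiation libraries 1, 2 and 3. At initiation this locus alone took 1.54%, 1.29% and 0.89% of the counts of libraries 1, 2 and 3. The log2 change was −12.67 (SE 0.82; edgeR adjusted p = 1.67e-07). Its mean was 0.375 ± 0.353 CPM in low growth (SD, n = 3). In high strength hens it was 1.59 ± 0.587 CPM at termination and 0.449 ± 0.295 CPM at initiation, and the change differed between the strength groups (log2 difference −14.47 with SE 1.0; edgeR adjusted p = 2.83e-06).

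**Figure D2:**
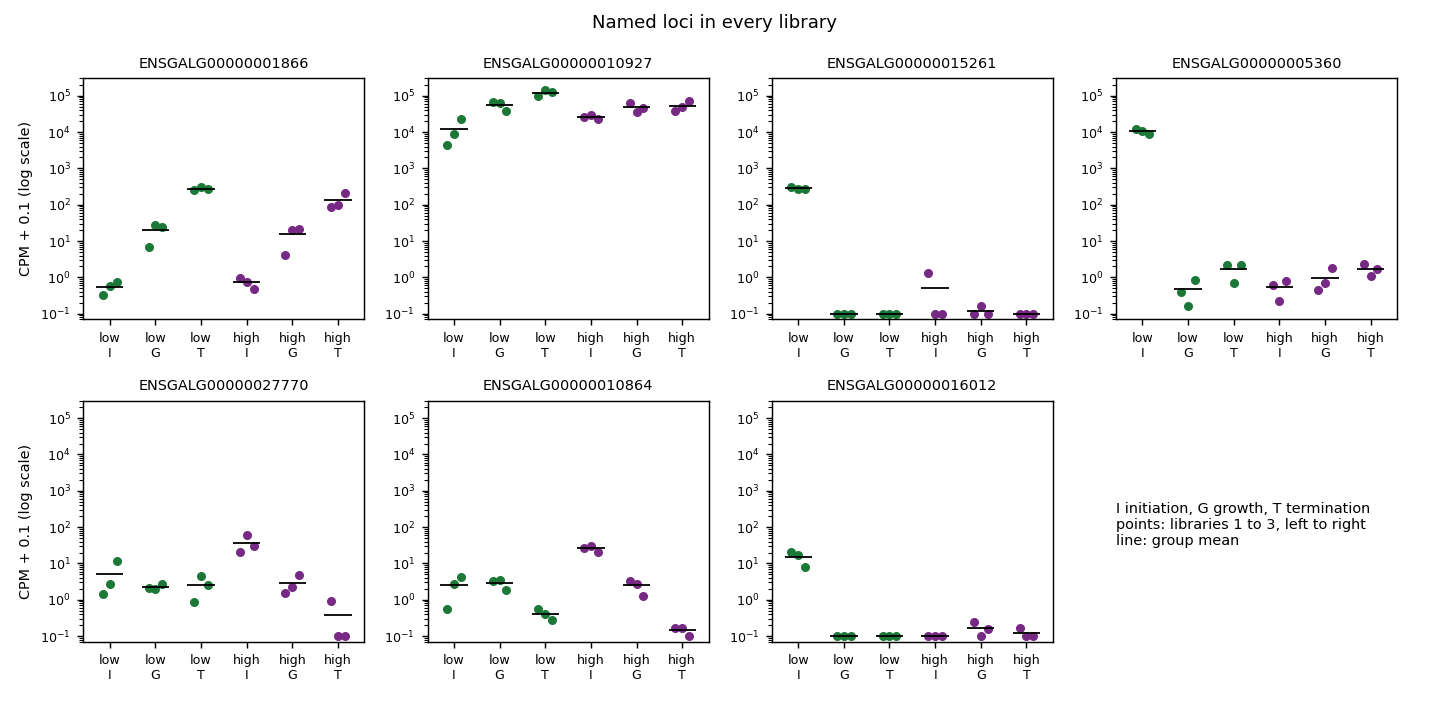
Each panel is 1 named locus, with CPM plus 0.1 on a log axis for the 3 libraries of each group (points, replicates 1 to 3 from left to right) and the group mean (line), low strength in green and high strength in purple. ENSGALG00000001866 stands above 80 CPM in all 6 termination libraries, while ENSGALG00000015261, ENSGALG00000005360 and ENSGALG00000016012 are high in the 3 low initiation libraries alone.

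Other loci were near 0 in one period. Of the loci tested, 23 had no counts in the 3 low termination libraries and at least 1 CPM on average at low initiation. They were chosen on these levels, so their calls are a description and not a test: 22 were called lower (11.4% of all loci tested were). In 21 of the 23 the mean in low growth was also under 0.5 CPM. The exception to the calls was Novel00461, with 0.0554, 14.2 and 28.4 CPM in low initiation libraries 1, 2 and 3 (edgeR adjusted p = 0.0593). In the other direction, 2 loci had no counts in the 3 low initiation libraries and at least 1 CPM at termination. Chosen on their levels in the same way, both were called higher (9.6% of all loci tested were). Novel00563 had 16.1, 2.50 and 5.79 CPM in low termination libraries 1, 2 and 3, a mean of 8.13 CPM. Novel02425 had 2.18, 0.899 and 2.58 CPM, a mean of 1.89 CPM (edgeR adjusted p = 4.44e-04 and 0.00387). The means were at least 44.8-fold and 10.4-fold above the floor, and the lowest library of each was above it by less. These 3 loci were named after their values were seen.

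A set of loci was high at low strength initiation and in no other group. With at least 1 CPM on average and at least 10 times the mean of each of the other 5 groups, 89 loci were found for low initiation, 1 for high initiation (ENSGALG00000013568) and 0 for each of the other 4 groups, low termination included. In 52 of the 89, every low initiation library was at least 10 times above every library of the other groups. The set was chosen on these levels, so its lower level at termination is a description and not a test: 88 of the 89 were called lower at termination (11.4% of all loci tested were), and ENSGALG00000014884 was not (edgeR adjusted p = 0.0703). The median low initiation level of the set was 7.33 CPM, with 37 loci at 10 CPM or more and 7 at 100 CPM or more, and 53 of the 89 had Ensembl identifiers.

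Together the 89 loci summed to 109, 107 and 118 CPM in low termination libraries 1, 2 and 3 and to 17634, 15196 and 12311 CPM in low initiation libraries 1, 2 and 3. ENSGALG00000005360 supplied most of that sum. Without it the sums were 107, 106 and 116 CPM at termination and 5087, 4401 and 3547 CPM at initiation. Among the low initiation libraries, library 1 was the highest at 69 of the 89 loci and library 3 the lowest at 72, so the 3 libraries kept much the same order across the set. In the high strength hens the sums were 77.9, 68.0 and 122 CPM at termination and 137, 132 and 139 CPM at initiation. The change was called different between the strength groups, and more negative in low strength hens, for 40 of the 89 loci. Of all loci tested, 11.4% were called in that direction. That test shares the low initiation libraries with the choice of the set. The median log2 change of the set was −5.90 in low and −0.20 in high strength hens. The 49 loci not called include ENSGALG00000015261 (log2 difference −9.48 with SE 37631). With no counts of it in the low or high termination libraries, the test cannot show whether its change differed. How many of the 49 are of this kind was not counted.

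At the top of the abundance range the transcriptome of the low strength hens was more concentrated at termination. The 10 most abundant loci of each library held 25.3%, 32.2% and 30.4% of its counts in low termination libraries 1, 2 and 3, against 9.53%, 10.7% and 16.5% in low initiation libraries 1, 2 and 3. The groups did not overlap, with means of 29.3% ± 3.60 at termination and 12.2% ± 3.71 at initiation (SD, n = 3 each). The 10 most abundant loci held 17.0% ± 1.40 in low growth. In high strength hens their share overlapped between the periods. It was 14.2%, 15.9% and 24.8% in high termination libraries 1, 2 and 3, against 16.6%, 17.6% and 16.5% in high initiation libraries 1, 2 and 3. The 100 most abundant held 45.6% ± 4.96 at termination and 27.4% ± 5.18 at initiation. Shares are of the counts as deposited, and a longer transcript yields more counts than a short one of equal number.

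ENSGALG00000010927 took 9.20% ± 0.452 of all counts at termination and 1.30% ± 0.901 at initiation (SD, n = 3 each), a gain of 7.90 percentage points. The 25 loci with the largest gains took 22.0 of the 29.4 percentage points gained in all. Of these 25, 11 had identifiers in a single numerical run, ENSGALG00000018357 to ENSGALG00000018386, which was singled out after its values were seen. The run holds 30 listed loci, of which 17 were abundant enough to test and 14 averaged 100 CPM or more. The run was picked by gains in this same comparison, so its calls are a description and not a test. Of the 17 tested, 12 rose and 0 fell (9.6% of all loci tested rose), with a median log2 change of 1.84 beside −0.03 over all loci. The 5 that were not called were the 3 under 100 CPM and, among the abundant ones, ENSGALG00000018386 with a log2 change of 1.27 (edgeR adjusted p = 0.130) and ENSGALG00000018384 with a log2 change of 1.84 (edgeR adjusted p = 0.0675).

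The summed share of this run was 12.1%, 16.9% and 15.2% in low termination libraries 1, 2 and 3, against 3.67%, 4.85% and 9.12% in low initiation libraries 1, 2 and 3. Termination was higher in every library, with initiation library 3 between the other initiation libraries and termination. In low growth the share was 5.87% ± 0.791 (SD, n = 3). High strength hens had 7.17%, 6.48% and 12.3% in termination libraries 1, 2 and 3 and 8.11% ± 0.461 at initiation, and 0 of the 17 tested loci passed the test of the difference between the strength groups in the change (edgeR quasi-likelihood test, where 15.2% of all loci did). This count does not show that the change was the same.

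**Figure D3:**
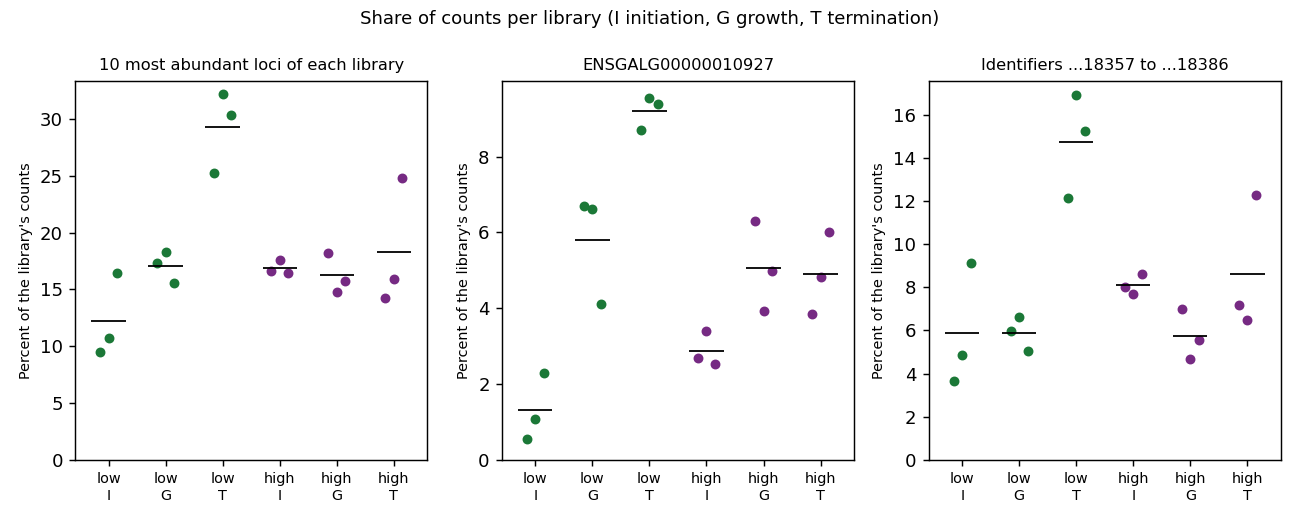
Percent of each library's deposited counts held by its 10 most abundant loci, by ENSGALG00000010927 and by the run of identifiers ENSGALG00000018357 to ENSGALG00000018386, for 6 groups in the order initiation (I), growth (G) and termination (T). Points are libraries 1 to 3 from left to right and lines are group means. In each panel the 3 low termination libraries lie above the 3 low initiation libraries.

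The calls also varied with the scaling. The TMM factors were 0.905, 0.677 and 0.755 for low termination libraries 1, 2 and 3, against 1.23, 1.19 and 1.02 for low initiation libraries 1, 2 and 3. With scaling to total counts the median log2 change of all loci moved to −0.59, and 748 loci were called higher and 5606 lower, so that 11.8% of the calls were higher in place of 45.7%. Of the 1547 loci called higher with TMM, 747 were still called higher with total counts, 60 had a change below 0 and none of these 60 was called lower. All 1839 loci called lower with TMM were also called lower with total counts. Changes are therefore relative to the bulk of the loci in each library.

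Across abundance, the share of loci called was 18.6% below a mean of 1 CPM over all libraries, 20.7% from 1 to 10 CPM, 20.6% from 10 to 100 CPM and 24.6% from 100 to 1000 CPM. Among the 69 loci with a mean of 1000 CPM or more it was 39.1%, and 22 of them rose and 5 fell. The class mean includes the libraries compared, so a locus can enter the top class by being high in one period, and these shares are a description. The 5 that fell include ENSGALG00000005360, which is in the class through low initiation alone, and were named after their values were seen. ENSGALG00000004476 averaged 219 ± 95.9 CPM at low termination and 3915 ± 465 CPM at low initiation (SD, n = 3 each), a log2 change of −4.16 (SE 0.68; edgeR adjusted p = 5.69e-04). The other falls were −1.61 in ENSGALG00000008969, −1.33 in ENSGALG00000010343 and −0.60 in ENSGALG00000004107 on the log2 scale.

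The loci that the authors numbered themselves were called about as often as Ensembl loci, 22.0% of 3383 and 20.8% of 12727, but the directions differed. Of the author-numbered loci 467 rose and 277 fell, so 62.8% of their calls were higher. Of the Ensembl loci 1080 rose and 1562 fell, so 40.9% were higher. The median log2 change was 0.28 over all author-numbered loci and −0.10 over all Ensembl loci. With total-count scaling the direction of the first flipped, to a median of −0.27 with 274 higher and 717 lower, and that of Ensembl loci moved to −0.65. No test of this contrast was made.

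Growth lies between the periods compared. Among loci that rose, the low growth mean of log2 CPM lay between the other means for 846 (54.7%), above both for 270 and below both for 431. Among loci that fell it lay between for 1012 (55.0%), above both for 467 and below both for 349. For the loci that rose, the median log2 change was 0.44 for growth minus initiation and 0.88 for termination minus growth. For the loci that fell, the medians were −0.54 and −0.70. Over all loci tested they were −0.05 and 0.02. These comparisons share libraries with the one that chose the loci, so the values are given side by side and nothing is read from their likeness. Choosing loci by a difference between the periods also favours a growth level between them. The share over all loci tested was not counted, so 54.7% and 55.0% are descriptions.

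The low strength change can be set against that in high strength hens, which shares no library with it. The loci that rose in low strength hens had a median log2 change of 0.57 between high termination and high initiation, and those that fell had a median of −0.20, beside 0.06 over all loci. High termination library 3 stood apart from libraries 1 and 2 of its group in how concentrated its counts were. Its 10 most abundant loci held 24.8% of them, against 14.2% and 15.9% in libraries 1 and 2. Without this library the medians of the high strength change were 0.37, −0.12 and −0.04. With all libraries, that change was called for 595 of the loci that rose (38.5%), 581 higher and 14 lower. It was called for 542 of those that fell (29.5%), 437 lower and 105 higher. Over all loci tested it was called for 22.3%, 2225 higher and 1361 lower. Without high termination library 3 the calls were 584 higher and 144 lower among 1540 tested loci that rose. Among the 1839 that fell they were 506 lower and 365 higher. Over all loci tested 51.9% were then called, 4329 higher and 4007 lower. The share called was thus lower in both sets than over all loci, while with all libraries it was higher.

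The difference between the strength groups in the change passed the test for 2446 loci, 15.2% of those tested. For 611 of these (3.79% of those tested) low minus high was above 0 and for 1835 (11.4%) it was below 0. It passed for 276 of the 1547 loci that rose in low strength hens (17.8%) and for 735 of the 1839 that fell (40.0%). The low libraries enter both the choice of these loci and the test of the difference. Single libraries moved the count of 2446. It was 397, 532 and 3527 without low initiation libraries 1, 2 and 3, and 3388, 706 and 646 without low termination libraries 1, 2 and 3. It was 621, 1328 and 778 without high initiation libraries 1, 2 and 3, and 715, 862 and 8488 without high termination libraries 1, 2 and 3.

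**Figure D4:**
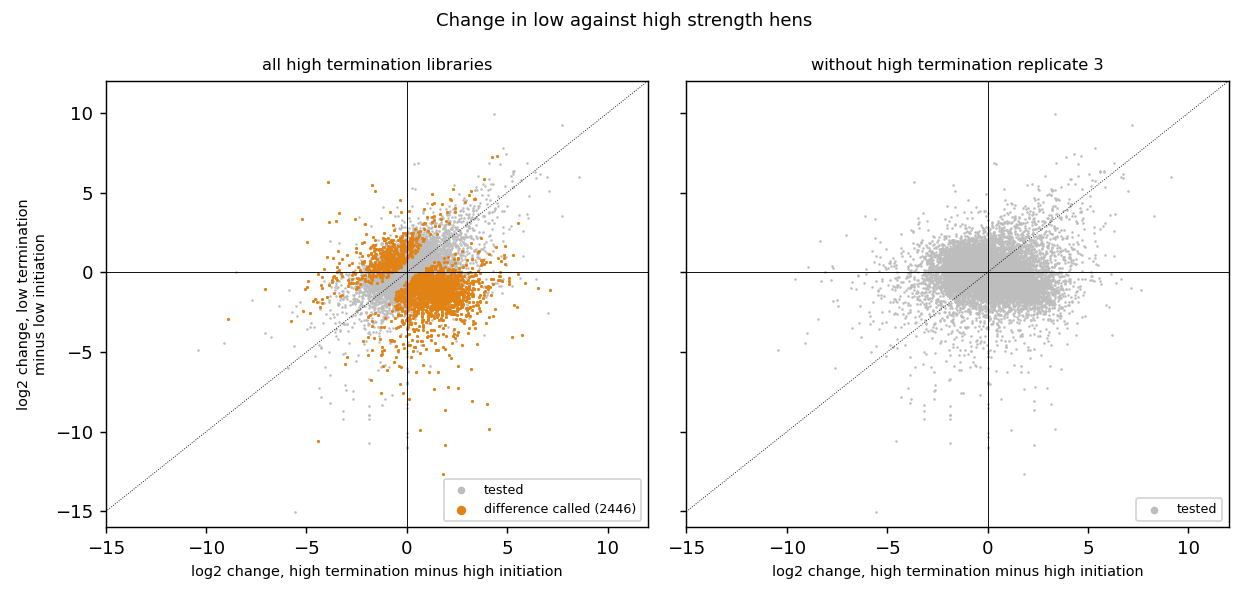
Log2 change of each locus, termination minus initiation, in low strength hens (vertical axis) and in high strength hens (horizontal axis), with all libraries on the left and without high termination replicate 3 on the right. In the left panel orange marks the 2446 loci whose change differed between the strength groups with all libraries, and the dotted line marks equal change. Of the orange loci, 1599 have a fitted change below 0 in low and above 0 in high strength hens, and 424 the reverse. These are signs only, with no call required in either strength group. Choosing loci by their difference favours opposite signs, so the counts are a description.

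Where the difference was largest with low above high, the larger change was in the high strength hens. ENSGALG00000027770 had 0.753, 4.29 and 2.49 CPM in low termination libraries 1, 2 and 3, against 1.33, 2.56 and 11.3 CPM in low initiation libraries 1, 2 and 3, which overlap. In high strength hens it had 0.816, 0 and 0 CPM at termination and 21.0, 61.7 and 29.5 CPM at initiation. The log2 difference was 6.03 (SE 1.42; edgeR adjusted p = 0.0189), and the call was lost, with adjusted p up to 0.0704, without low initiation library 1 or 2, without low termination library 2 and in the 12 initiation and termination libraries alone. The size rests on high termination library 1, the one library of its group with counts, and was 11.11 without it, a fitted value against libraries at 0. ENSGALG00000010864 had 0.452, 0.300 and 0.178 CPM in low termination libraries 1, 2 and 3, against 0.443, 2.62 and 4.26 CPM in low initiation libraries 1, 2 and 3. Low initiation library 1 fell among the termination libraries, although the locus was called lower in low strength hens (log2 change −2.91 with SE 0.71; edgeR adjusted p = 0.00923). High strength hens had 2 counts of it in the 3 termination libraries together and 25.9 ± 5.06 CPM at initiation (SD, n = 3), a log2 difference of 5.99 (SE 1.23; edgeR adjusted p = 0.0111). Its high termination mean, 0.0435 CPM, was under the floor of 3 counts there (0.210 CPM on average), so 5.99 is a fitted value and not a measured size.

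With low minus high below 0, the rule named ENSGALG00000005360 and, by a fitted value over groups at 0 counts that gives no rank, ENSGALG00000016012. It had 0 counts in the low termination libraries and 20.8, 17.3 and 7.86 CPM in low initiation libraries 1, 2 and 3. On average it was at least 58.0-fold lower at termination by the floor of 3 counts, and against low initiation library 3 alone the bound is lower. High strength hens had 1 count of it in all termination libraries and 0 counts at initiation (edgeR adjusted p = 0.0379 for the difference). That call was lost, with adjusted p up to 0.99988, without low termination library 2 or 3, without any one of the 3 high initiation libraries, without high termination library 1 or 2, without high growth library 3 and in the 12 initiation and termination libraries alone. Without any one low initiation library the locus no longer passed the filter on low counts.

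The replicates of each period were not alike. In each period the same library was nearest to the other period for most called loci. Initiation library 3 was the initiation library nearest to the termination group for 1125 of the 1547 loci that rose (72.7%) and for 1406 of the 1839 that fell (76.5%). Termination library 1 was the termination library nearest to the initiation group for 830 of the loci that rose (53.7%) and 1079 of those that fell (58.7%). The shares over all loci tested were not counted, so these are descriptions. Over all loci, log2 CPM of initiation libraries 1 and 2 correlated at Pearson's r = 0.990, and library 3 correlated with them at 0.946 and 0.959. Termination libraries 2 and 3 correlated at 0.978, and library 1 correlated with them at 0.933 and 0.962. Pairs across the periods ranged from 0.815 to 0.923. These correlations are across loci within the same scaling and are descriptions.

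Read statistics of mate 1 also differed between the periods in the low strength hens. In mate 1, the share of bases at quality 30 or above was 92.4%, 90.9% and 91.3% in low termination libraries 1, 2 and 3, against 95.2%, 94.7% and 94.3% in low initiation libraries 1, 2 and 3. The GC content of mate 1 was 50.6%, 53.1% and 52.0% at termination and 49.2%, 49.3% and 50.6% at initiation. In mate 1 neither measure overlapped between the groups, although GC content of termination library 1 and initiation library 3 differed by very little (exact two-sided permutation test over libraries, p = 0.1 for each, the smallest that 3 against 3 libraries allow). In mate 2 the quality shares overlapped, with means of 82.2% ± 1.01 at termination and 83.8% ± 5.01 at initiation (SD, n = 3 each, exact permutation p = 1). The GC content of mate 2 overlapped too, at 50.92%, 53.46% and 52.34% in low termination libraries 1, 2 and 3, against 49.31%, 49.69% and 51.02% in low initiation libraries 1, 2 and 3 (exact two-sided permutation p = 0.2). In high strength hens the quality share of mate 1 went the other way. It was 92.16%, 93.21% and 92.42% in high termination libraries 1, 2 and 3, against 91.55%, 91.65% and 91.61% in high initiation libraries 1, 2 and 3. Their GC content of mate 1 overlapped, at 49.33%, 50.01% and 51.76% against 50.09%, 49.85% and 49.87%. The part of these measures in the loci called was not tested, and the labels name no sequencing batch.

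Of the 3386 calls, 1320 were made in the same direction under all 26 other fits that were run, of which 539 were higher and 781 lower at termination. Leaving out each of the 18 libraries in turn kept 1467 of them. The count fell to 1624 and 1750 without low initiation libraries 1 and 2 and to 1995 and 2033 without low termination libraries 2 and 3. It was 3906 without low initiation library 3 and 4143 without low termination library 1, the libraries nearest to the other period. Without high termination library 3, which takes no part in the contrast but adds to the shared spread, 6324 loci were called. ENSGALG00000001866, ENSGALG00000010927, ENSGALG00000015261 and ENSGALG00000005360 kept their direction and call in all 26 fits, with adjusted p at most 1.59e-04, 0.0286, 0.0154 and 2.11e-04 over edgeR, DESeq2 and limma.

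**Figure D5:**
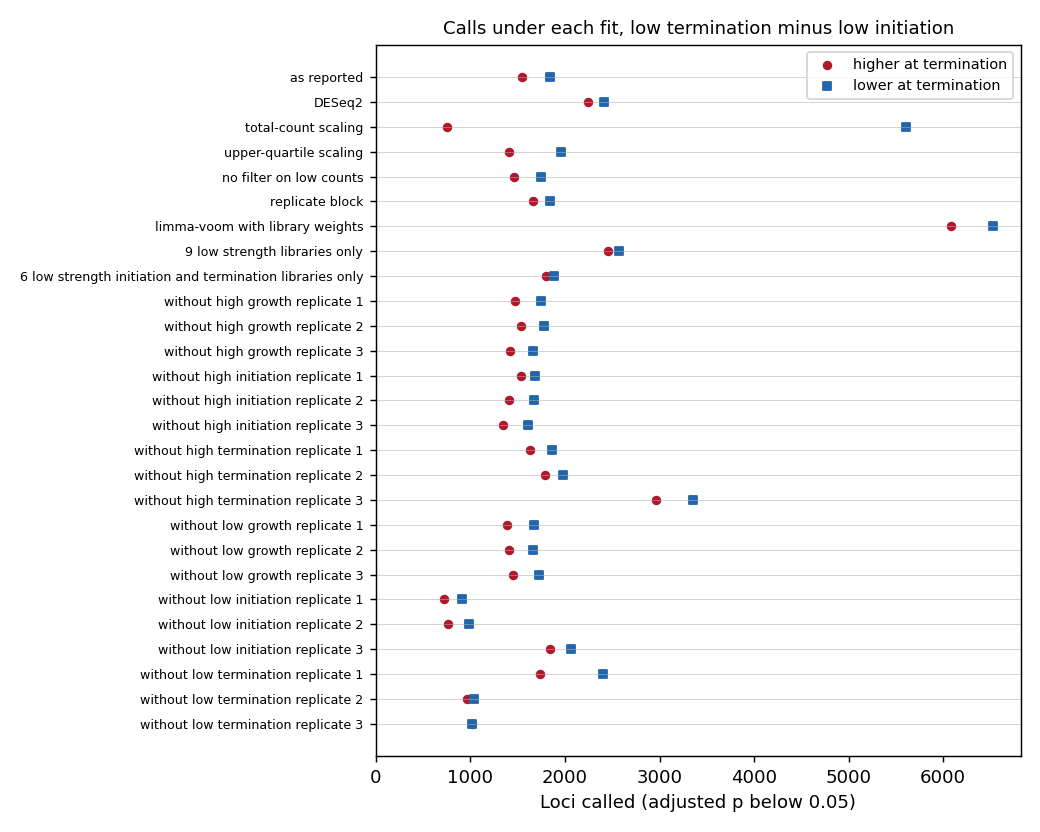
Number of loci called higher (red circles) and lower (blue squares) at low termination than at low initiation under each fit, from the reported one at the top through 8 other fits to the 18 that leave out 1 library. Total-count scaling separates the directions most, with 748 higher and 5606 lower, and leaving out low initiation replicate 1 gives the fewest calls, 1624.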

How the data were processed

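For 18 libraries the authors deposited gene counts and, for each mate, read numbers with GC content and bases at quality 30 in percent. Per the labels' protocols, total RNA was isolated with Trizol and libraries were made with an Illumina TruSeq RNA kit. Bowtie2, TopHat, TopHat2 and galGal4 are named in the submitters' processing notes. How reads were counted, with which annotation release and strand setting, is not given in the sources used here. Paralogous, overlapping or antisense loci may therefore share reads. Although labelled normalized, the values are whole numbers whose library totals tracked those of the read pairs kept by the authors (Pearson's r = 0.950, n = 18, a check of the unit), so they were treated as counts.

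Loci above 1 CPM in at least 3 libraries were tested with edgeR 4.0.16 in R 4.3.3 (TMM, quasi-likelihood, 6 group means, Benjamini-Hochberg threshold 0.05). Standard errors are the log2 change over the square root of F. Alternatives used DESeq2 1.42.0 and limma 3.58.1, and permutation tests scipy 1.17.1. The test was checked on simulated data in which all groups had the same spread per locus. Few loci were changed in it, with equal numbers higher and lower. That check does not cover the unequal spread of the groups here. Nor does it cover the large share of loci called or the concentration of counts at low termination. Log2 CPM used a prior count of 2. Floors of 3 counts (0.264 CPM on average in low termination, 0.181 in low initiation) cover counting error only. No 2 libraries of a period matched within sampling error (chi-square per degree of freedom 8.60 to 105).

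Members, lists and rules were chosen with earlier results of these data known. Without gene names, 18 planned gene and marker lists could not be tested. Named Ensembl loci had a call, no overlap and a mean of 10 CPM or more in one period: per direction, the largest fitted log2 change and the largest change in CPM (825 rises and 1150 falls met this). For the difference between strength groups, the 2 with the largest fitted difference per direction were named, of 1706 with a call and 10 CPM in 1 group.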

Additional observations from a re-analysis of the deposited data

Results flagged for a closer look

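The change from initiation to termination differed between the strength groups for 2446 loci, 15.2% of those tested. This count is from the test of the difference itself (edgeR quasi-likelihood test, low minus high). Of these calls, 306 were kept under all 25 other fits, and leaving out each of the 18 libraries in turn kept 383. Among the loci named, ENSGALG00000005360 differed by −14.47 on the log2 scale, ENSGALG00000027770 by 6.03 and ENSGALG00000010864 by 5.99, each past the threshold in that test. The sizes for ENSGALG00000027770 and ENSGALG00000010864 are fitted values over high termination libraries with few or no counts. ENSGALG00000016012 also passed it, but its fitted difference of −12.74 is over groups at 0 counts and is no measure of size. ENSGALG00000005360 and ENSGALG00000010864 passed it in all 25 other fits. ENSGALG00000027770 missed it in 4 of them and ENSGALG00000016012 in 9 of the 22 that could test it. No formal test of a single outlying value was run in these groups of 3 libraries.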

How the results depend on the processing

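The count of 3386 loci called in low strength hens became 6354 with total-count scaling and 12609 with limma-voom and library weights, and ranged from 1624 to 6324 when 1 of 18 libraries was left out. The other fits gave between 3202 and 5026, with DESeq2 at 4654, the 9 low strength libraries alone at 5026 and the 6 libraries compared at 3683. The count of 2446 loci that differed between the strength groups became 3989 with DESeq2, 11756 with limma-voom and library weights and 464 in the 12 initiation and termination libraries alone, and ranged from 397 to 8488 when 1 library was left out. The median SD of log2 CPM was 0.606 in high termination and 0.333 in low termination, against 0.213 to 0.270 in the other groups, and all groups shared 1 spread per locus. The termination minus initiation gain in the share of the 10 most abundant loci was 17.1 percentage points of deposited counts and 27.6 when counts were scaled by TMM. The 846 rising and 1012 falling loci with an intermediate growth level were 845 and 1013 with a prior count of 0.5. The cause of these shifts was not tested.

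A pairing of the samples by replicate number was not established. Deviations of same-numbered low termination and low initiation libraries from their group means correlated at 0.545, −0.427 and 0.392. With 3 libraries per group these values can neither show nor exclude a pairing. With a replicate block 3502 loci were called in low strength hens and 1996 for the difference, and not every library correlated best with its own number. The planned fits on a log scale with a pseudocount did not apply, since the values are counts. At the depth here, 3 counts correspond to between 0.186 and 0.225 CPM before scaling.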
